A study of Apis mellifera with 138 samples.

Results

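Vitellogenin (Vg, gene3428 in the count files) was followed through the brain and abdominal fat body libraries of individual honey bee workers. It is 1 of the 12332 bee genes counted. Of the 138 libraries, the 132 in which at most 0.5% of the counts fell on 5 bee virus genomes were used, 65 from fat body and 67 from brain. Both tissues were available for 65 bees.

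At 3 days of age the workers drank 30% sucrose with 1000 pmol of either oligonucleotide, and their tissues were taken after 48 h, when they were 5 days old. The antisense strand antag-305 carries chemical modifications and is directed at the microRNA ame-miR-305-5p. The control strand, antag-missense, carries the same modifications. Bees carried no transgene and came from 3 colonies, R2, R3 and R42, whose queens had each been inseminated with a single drone. By the paper's antagomir protocol they lived in a hive before treatment, where their diet was not set. Afterwards they were caged singly with 30% sucrose solution and no pollen or honey. Every colony was its own trial, and an effect of colony cannot be told apart from one of trial. The fat body libraries came from 12 antag-305 and 9 antag-missense bees of R2, 12 and 11 bees of R3, and 11 and 10 bees of R42. The brain libraries came from 12 antag-305 and 11 antag-missense bees of R2, 12 and 11 bees of R3, and 11 and 10 bees of R42. A library is the RNA of 1 tissue of 1 bee, and the p-values measure the spread between bees.

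Vitellogenin is a large lipid-carrying yolk protein that insect fat body cells make and secrete into the blood. In worker honey bees, which rarely lay eggs, it is best known as a nurse bee protein. Nurses use it as a store from which brood food is made, and its level falls when workers become foragers and juvenile hormone (JH) rises. In honey bees, Vg and JH are described as holding each other down. Vg has also been linked to the insulin pathway, to protection from oxidative damage and to long life.

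Bee counts per library ran from 5346264 to 29204597 in the fat body and from 5825129 to 49150105 in the brain. Levels are given as CPM (the standard unit for counts scaled to a common library size, proportional to the share of a gene in the counts of its library), after scaling by the trimmed mean of M-values (TMM) method, with the factors set within each tissue. Calls were made with the quasi-likelihood test of edgeR where P, adjusted by the Benjamini-Hochberg method, was under 0.05. The fat body markers Hex70a and Hex110 were counted in every fat body library, and the synaptic genes Syt1 and brp had at least 786 and 736 CPM in every brain library. Neuron markers were also present in fat body libraries, where the sum of 7 of them ran from 24.2 to 984 CPM in antag-305 bees and from 40.5 to 652 CPM in antag-missense bees. The sum of 7 troponin genes, markers of muscle, ran from 1385 to 4820 CPM in the fat body of antag-305 bees and from 1481 to 4442 CPM in that of antag-missense bees. Lower Vg from fewer fat body cells cannot be told apart from less Vg RNA per cell. A pair of libraries stood apart from the rest, the fat body of antag-missense bee 13 of R42, which was low in Hex70a and Hex110, and the brain of antag-305 bee 14 of R42, which was high in fat body, oenocyte and muscle genes. Some results that hold these libraries, among them the treatment differences over all colonies, are also given without them.

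Vg lies on chromosome 4 of the HAv3.1 assembly, on the minus strand, at 5029485 to 5035661. The counted span is 6177 bases and includes introns. Its 3′ end shares 160 bases with LOC107964258, a gene on the other strand, which averaged 0.362 CPM of the bee counts, without TMM scaling, in the fat body and 0.0121 in the brain. On the same scale Vg averaged 126 CPM in the fat body and 2.90 in the brain. The next genes on either side, LOC100577614 and LOC408817, do not overlap Vg.

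In the fat body, nestmates of the same age and treatment differed widely in Vg. Their diet was set only after feeding with the oligonucleotide. In R2, Vg ran from 41.8 to 463 CPM with a median of 110.3 CPM in antag-305 bees, against 13.2 to 287 CPM with a median of 100.3 CPM in antag-missense bees. In R3, it ran from 25.1 to 227 CPM with a median of 117 CPM in antag-305 bees, against 11.7 to 617 CPM with a median of 119 CPM in antag-missense bees. In R42, it ran from 31.4 to 375 CPM with a median of 106 CPM in antag-305 bees, against 4.61 to 203 CPM with a median of 63.7 CPM in antag-missense bees. All 6 groups overlapped, and the lowest bee of each colony was fed antag-missense. The highest bee of a group exceeded the lowest by 9.05-fold (R3, antag-305) to 52.7-fold (R3, antag-missense).

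**Figure D1:**
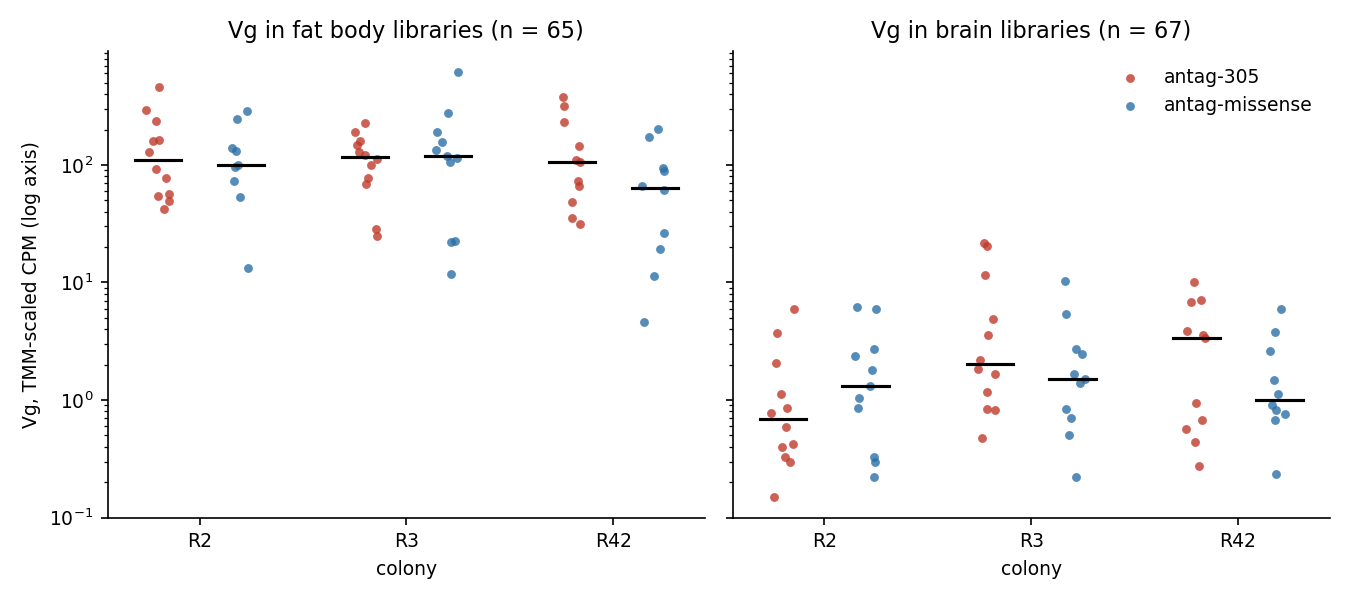
Vg level of every library as TMM-scaled CPM on a log axis, in fat body (left) and brain (right), by colony and treatment. Each point is 1 bee and each bar a group median. Fat body points lie between 4.61 and 617 CPM and brain points between 0.151 and 21.6 CPM, and the treatments overlap in every colony.

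The extremes of the fat body were far apart in raw counts too. The lowest library, antag-missense bee 13 of R42, held 53 Vg reads, or 4.90 CPM without TMM scaling (95% Wilson interval 3.75 to 6.41). The highest, antag-missense bee 15 of R3, held 10430 reads, or 582 CPM on that scale (571 to 593). These intervals cover counting error only, which was small beside the spread between bees. The lowest bee was also low in Hex70a, with 333 CPM against a median of 2385 CPM in the others, and had 1 read of Hex110. Without it, the difference of antag-305 over antag-missense in fat body Vg was 0.14 on the log2 scale (edgeR adjusted P 0.898).

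In the brain, Vg was scarce and also differed widely between nestmates. In R2, it ran from 0.151 to 5.94 CPM with a median of 0.688 CPM in antag-305 bees, against 0.223 to 6.22 CPM with a median of 1.32 CPM in antag-missense bees. In R3, it ran from 0.471 to 21.6 CPM with a median of 2.01 CPM in antag-305 bees, against 0.223 to 10.2 CPM with a median of 1.52 CPM in antag-missense bees. In R42, it ran from 0.273 to 10.1 CPM with a median of 3.40 CPM in antag-305 bees, against 0.234 to 5.97 CPM with a median of 1.01 CPM in antag-missense bees. The 3 highest brains, at 11.5, 20.3 and 21.6 CPM, all came from antag-305 bees of R3. Brain counts were low, from 2 to 273 reads with a median of 22, and 19 of the 67 brain libraries had fewer than 10 Vg reads. At 2 reads, the lowest brain had 0.154 CPM of Vg without TMM scaling, with a Wilson interval of 0.0423 to 0.562, so differences among the lowest brains were not detectable at this depth.

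Vg was among the genes that varied most between bees of one colony and treatment. The biological coefficient of variation is the spread between bees that remains after counting error, as a share of the mean. For Vg it was 0.818 in the fat body, where the median gene had 0.285 and 675 of the 8844 tested genes had a higher value. In the brain it was 1.01, against a median gene of 0.183, and 35 of the 9118 tested genes had a higher value. Among the 1105 fat body genes within 0.5 of the mean log2 abundance of Vg, 6 varied more, and among the 592 such genes of the brain, 3 did. In the plot of this measure against abundance, the storage protein genes Hex70a and Hex110 also lie above most fat body genes of their abundance.

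**Figure D2:**
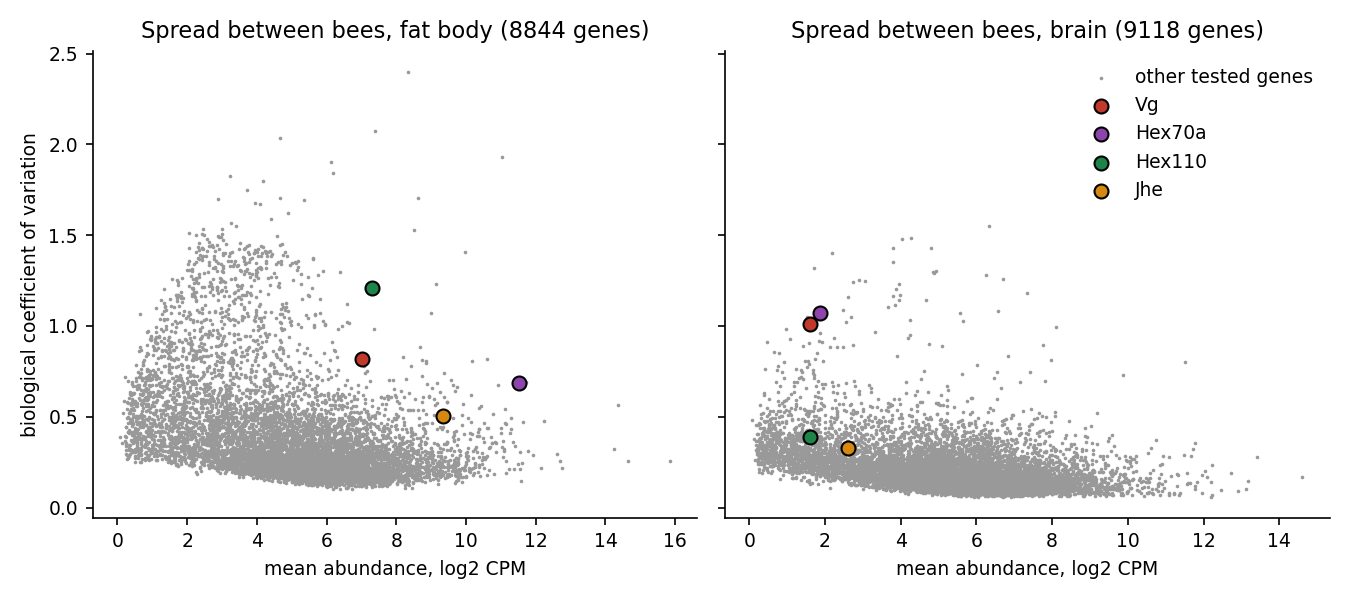
Biological coefficient of variation of every tested gene against its mean abundance in log2 CPM, in fat body (left, 8844 genes) and brain (right, 9118 genes). Vg, the storage protein genes Hex70a and Hex110 and the juvenile hormone esterase gene Jhe are marked, and Vg sits at 0.818 in fat body and 1.01 in brain, above nearly all genes of its abundance.

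The width of the range did not pass the test between treatments or colonies. The mean absolute deviation of log2 CPM from the median of a bee's own group was 0.870 in antag-305 and 1.16 in antag-missense fat bodies (permutation test within colony, two-sided, p = 0.203). In the brain it was 1.28 in antag-305 and 1.04 in antag-missense bees (permutation test, p = 0.299). By colony it ran from 0.914 in R2 to 1.15 in R42 in the fat body (permutation test, p = 0.658) and from 1.09 in R2 to 1.21 in R3 in the brain (permutation test, p = 0.898).

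Whether antag-305 changed Vg was tested in each tissue with colony in the model. Vg averaged 136 ± 103 CPM in fat bodies of antag-305 bees (SD, n = 35) and 122 ± 122 CPM in those of antag-missense bees (SD, n = 30). The log2 fold change was 0.20 (SE 0.32, edgeR adjusted P 0.841), a fold of 1.15 with a 95% interval of 0.743 to 1.78. Across all fat body genes 6 of 8844 were called for treatment, or 0.0678%.

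In the brain, Vg averaged 3.58 ± 5.17 CPM in antag-305 bees (SD, n = 35) and 2.16 ± 2.29 CPM in antag-missense bees (SD, n = 32). The medians over all colonies had the other order, with 1.16 CPM in antag-305 and 1.36 CPM in antag-missense bees. The log2 fold change was 0.51 (SE 0.38, edgeR adjusted P 0.329), a fold of 1.43 with an interval of 0.845 to 2.42. The share of brain genes called for treatment was 11.3%, and Vg was not among them. Without antag-305 bee 19 of R3, the highest brain, the log2 fold change was 0.36 (adjusted P 0.495), and without antag-305 bee 14 of R42 it was 0.46 (adjusted P 0.377).

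The estimated treatment difference of Vg had both signs over the colonies. In the fat body the log2 fold change was 0.26 (SE 0.47) in R2, -0.42 (SE 0.49) in R3 and 0.88 (SE 0.56) in R42. In the brain it was -0.57 (SE 0.57) in R2, 1.18 (SE 0.65) in R3 and 0.87 (SE 0.60) in R42. None of the 6 was called in its own colony, with edgeR adjusted P between 0.248 and 0.993. The test of treatment by colony gave an adjusted P of 0.444 in the fat body, where 10.5% of genes were called, and 0.999 in the brain, where 0.428% were.

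**Figure D3:**
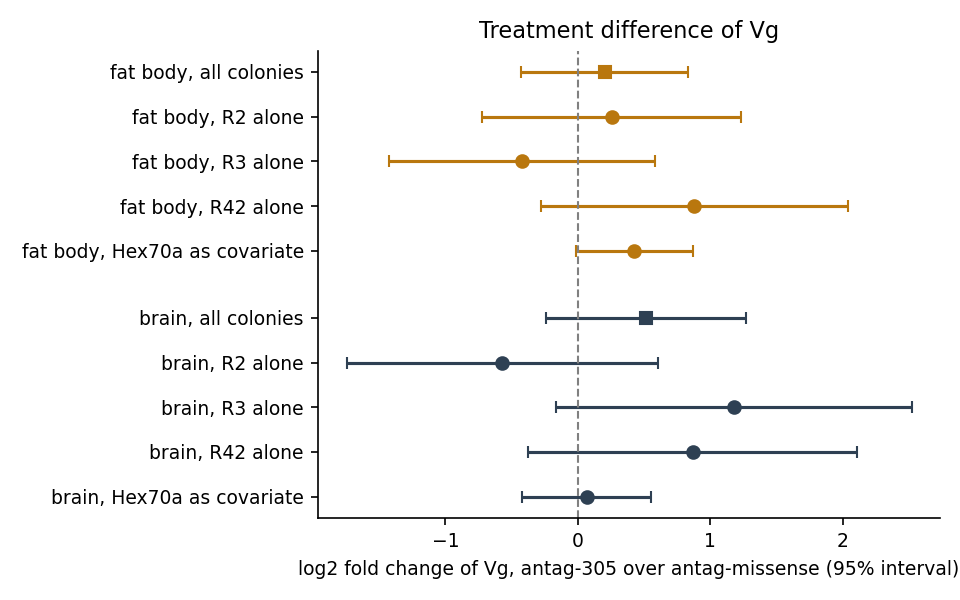
Log2 fold change of Vg, antag-305 over antag-missense, with its 95% interval, for fat body (upper 5) and brain (lower 5). Squares are fits over all colonies and circles are single colonies or the fit with the Hex70a level of the library as a covariate. Every interval includes 0. The brain estimate is 0.51 without and 0.07 with the covariate, a gene that itself follows brain Vg closely.

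Vg was not called between colonies in either tissue. In the fat body the edgeR test over the 3 colonies gave an adjusted P of 0.604, in a comparison that called 45.4% of genes. Vg medians were 119 CPM in R3, 100.3 CPM in R2 and 73.4 CPM in R42. The log2 fold change was -0.38 (SE 0.38) for R42 over R2 and -0.38 (SE 0.38) for R42 over R3, and R3 and R2 differed by less than 0.01 on the log2 scale (SE 0.38). No neighbors in that order differed beyond the spread between bees.

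In the brain the order was R3, R42 and R2, with medians of 1.66, 1.12 and 0.861 CPM. The test over colonies gave P = 0.0434 and an adjusted P of 0.102 in edgeR, where 33.6% of brain genes were called. Vg was 2.21-fold higher in R3 than in R2 (log2 fold change 1.14, SE 0.46, adjusted P 0.0741), 1.39-fold higher in R42 than in R2 (0.48, SE 0.47, adjusted P 0.474) and 0.630-fold in R42 relative to R3 (-0.67, SE 0.45, adjusted P 0.329). None of these passed the threshold. Without antag-305 bee 14 of R42 the test over colonies gave an adjusted P of 0.0893. In antag-305 bees alone R3 over R2 was 2.01 (adjusted P 0.0558), and in antag-missense bees alone it was 0.27 (adjusted P 0.831), a pair whose difference belongs to the test of treatment by colony given above.

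The tissue difference of Vg was larger than its treatment and colony differences. In the 65 bees with both libraries, Vg was higher in the fat body than in the brain of the same bee in 65 of 65. The log2 fold change, with each bee as a block, was 5.77 (SE 0.27, edgeR adjusted P 1.49e-31), a fold of 54.5 with an interval of 37.7 to 78.8. Of the 8282 genes tested in both tissues 93.5% were called, so the call alone does not set Vg apart.

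The fold differed widely between bees. For values of both tissues side by side, CPM were scaled over all libraries together and so differ slightly from those above. On this scale the fold ran from 2.09 in antag-missense bee 20 of R3, with 22.3 CPM in the fat body and 10.7 CPM in the brain, to 930 in antag-305 bee 25 of R2, with 312 CPM in the fat body and 0.336 CPM in the brain. The median over bees was 61.7 in antag-305 and 56.4 in antag-missense bees, and by colony 128 in R2, 53.3 in R3 and 56.9 in R42. The fold was not called by treatment (log2 difference 0.02, SE 0.53, edgeR adjusted P 0.992, with 0.628% of genes called), and the interval for the ratio of the folds was 0.484 to 2.12. It was not called by colony either (adjusted P 0.195, with 35.8% of genes called).

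Whether a bee with much Vg in its fat body also had much in its brain was asked across the 65 bees. Pearson's r between the log2 levels was 0.215 (permutation p = 0.0861) and Spearman's rho was 0.247 (permutation p = 0.0485). With 12 correlations computed, over all bees, each colony and each treatment, the adjusted values were 0.344 and 0.291. Within colonies r was 0.282 (rho 0.245) in R2, 0.327 (rho 0.446) in R3 and 0.140 (rho 0.170) in R42. Within treatments r was 0.172 (rho 0.200) in antag-305 and 0.256 (rho 0.272) in antag-missense bees. All 12 coefficients were positive, but they share bees and are not independent. The smallest adjusted permutation p was 0.291. Without the 2 bees farthest from the median fat body level, r was 0.230 over the other 63.

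**Figure D4:**
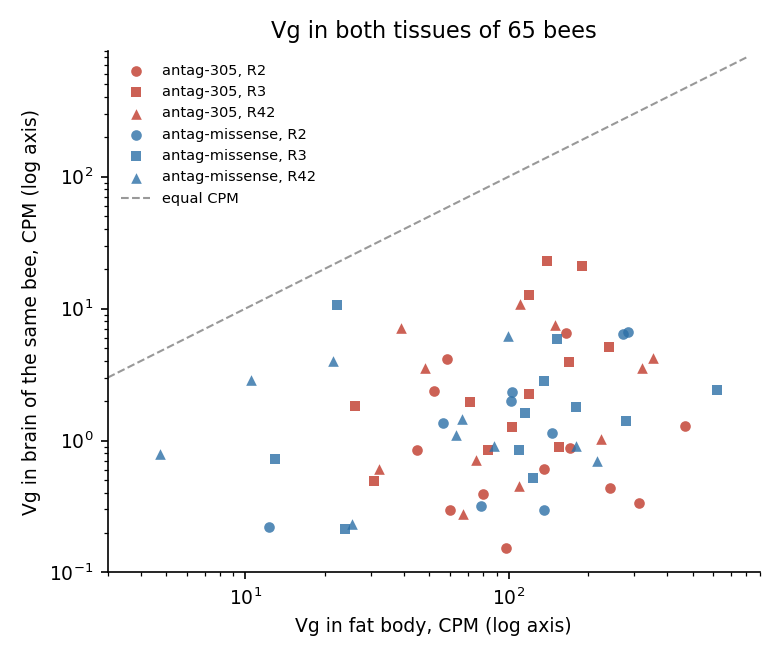
Vg level in the brain against Vg level in the fat body of the same bee, in CPM on log axes, for 65 bees. Color gives the treatment and shape the colony. All 65 points lie below the dashed line of equal CPM, and r is 0.215 (permutation p = 0.0861).

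In the model over all brain genes, the slope of brain Vg per doubling of fat body Vg was 0.23 on the log2 scale, which did not pass the test (SE 0.15, P = 0.137, edgeR adjusted P 1). It was 0.26 without antag-305 bee 14 of R42 and 0.09 with brain Hex70a as a covariate added after the data were seen. No brain gene was called on fat body Vg (0 of 9118, 0%), and 214 had an unadjusted P under 0.05. Among 8282 genes measured in both tissues, 87.3% had a lower rho between tissues than Vg, and the median gene had 0.0697. Hex70a, which also differs widely between bees, had a rho of 0.171.

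Among the genes that varied most closely with Vg between fat bodies was an enzyme of JH breakdown. Jhe encodes juvenile hormone esterase, which inactivates JH in the hemolymph. It ran from 133 to 1603 CPM with a median of 590.4 CPM, and over the 65 libraries its rho with Vg was 0.807 after removal of group means, the highest of 8843 genes by a narrow margin. The rho was 0.858 in R2, 0.754 in R3 and 0.803 in R42. Without removal of group means it was 0.792 in antag-305 and 0.798 in antag-missense bees. The next genes were LOC408797 (rho 0.806), LOC551241 (0.802), LOC408961 (0.798) and LOC410149 (0.788), none of which has a name in the annotation used. Before removal of group means LOC410149 (0.799) and LOC408797 (0.790) lay above Jhe (0.789), so the order among the first genes depends on that step. The 3 lowest were LOC409521 (-0.720), LOC100576761 (-0.711) and LOC551047 (-0.709), and the median gene had 0.0623. The libraries share Vg and each gene, so these values are descriptions.

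Genes of the storage protein list, which holds hexamerins and transferrin, rose with Vg in the fat body. Of the 5 genes on this list 4 were tested and all 4 rose with the Vg level of the library, in a model with colony and treatment that called 4915 of 8843 genes, or 55.6%. The median slope over the list was 0.80 per doubling of Vg, against 0.01 over all genes. Hex110, a hexamerin, rose by 1.16 (SE 0.13, edgeR adjusted P 3.22e-10) and Hex70a by 0.65 (SE 0.07, adjusted P 9.33e-10). HEX70b rose by 0.55 (SE 0.08, adjusted P 4.36e-07). Tsf1, which encodes the iron carrier transferrin, rose by 0.94 (SE 0.12, adjusted P 4.1e-08). Without antag-missense bee 13 of R42 the slopes were 1.14 for Hex110, 0.63 for Hex70a, 0.56 for HEX70b and 0.91 for Tsf1, and 4973 genes were called. Hex70c, the remaining hexamerin, was at or below 8.44 CPM and did not pass the filter.

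Of 8 genes of the JH and ecdysone pathways, Jhe rose with Vg (slope 0.47, SE 0.04, edgeR adjusted P 2.36e-12) and 5 fell, beside 55.6% of all genes called, 2595 higher and 2320 lower with Vg. Those that fell were Br-c (-1.02, SE 0.20), Ecr, the ecdysone receptor (-0.29, SE 0.08), E75 (-0.27, SE 0.09), Usp, its partner receptor (-0.20, SE 0.07), and E74 (-0.19, SE 0.07), with adjusted P between 1.79e-05 and 0.0226. Br-c, E74 and E75 are transcription factors first known as ecdysone response genes in Drosophila. These 5 genes were also lower in fat body than in brain, with log2 fold changes from -6.47 for Br-c to -1.74 for E74. The other 3 of the 8 were higher in fat body, in a comparison that called 93.5% of genes. The part of nervous tissue in these slopes was not tested. Kr-h1, the JH response factor, had a slope of 0.06 (SE 0.04, adjusted P 0.285). JHBP-1, named as a JH binding protein, had -0.04 (adjusted P 0.498).

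Among insulin and nutrient genes, InR-2, an insulin receptor, fell with Vg (-0.60, SE 0.13, edgeR adjusted P 8.2e-05). It was also lower in fat body than in brain (log2 fold change -2.82), as were 2 of the 4 tested genes of this list, itself included. The insulin-like peptide gene ILP-2 (0.09, SE 0.04, adjusted P 0.0536) and Akhr, the receptor of adipokinetic hormone (0.02, SE 0.03, adjusted P 0.639), were not called. Of 6 antioxidant genes 4 rose, with slopes from 0.07 for Trxr-1 to 0.20 for Cat, the catalase gene, and a list median of 0.09. Sod1 and Sod2, the superoxide dismutases, rose by 0.11 and 0.14. This share, too, stands beside 55.6% of all genes called. Without antag-missense bee 13 of R42 the JH and ecdysone calls were 1 higher and 5 lower, and the antioxidant calls 4 higher and 1 lower, the last being Gtpx1 (adjusted P 0.0428, against 0.0687 with that bee).

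Markers of other tissues moved with Vg as well. All 7 troponin genes were called, 6 of them higher with Vg, and the rho of Vg with their sum was 0.684. Of 7 neuron markers, 5 fell with Vg and 1, Syt1, rose, with a list median slope of -0.86. The glial transporter Eaat-2 fell by 0.44. The oenocyte enzyme Cyp4g11 and the hemocyte enzyme PPO rose by 0.39 and 0.20. Of the hypopharyngeal gland markers 2 passed the filter and 1 of them rose, as did 1 of 2 ovary markers. All of these counts stand beside 55.6% of all genes called, and the last ones are near that share.

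Which of these slopes remained beside those markers was measured with fits added after the data were seen. With the summed troponin level as a covariate, 314 of 8843 genes were called on Vg, against 4915 without it. Jhe (slope 0.45, SE 0.06, edgeR adjusted P 3.34e-07), Hex70a (0.60, SE 0.09, adjusted P 3.53e-05) and Hex110 (0.90, SE 0.17, adjusted P 6.54e-04) were still called. HEX70b (0.09, adjusted P 0.335) and Tsf1 (0.44, adjusted P 0.0605) were not, nor were Br-c (-0.51, SE 0.21), Ecr (-0.16, SE 0.10), E75 (-0.24, SE 0.12), Usp (-0.15, SE 0.11), E74 (-0.14, SE 0.09) and InR-2 (-0.29, SE 0.17), with adjusted P from 0.135 to 0.347. All 6 slopes remained below 0. The neuron markers NLG-3 (-0.52) and brp (-0.32) were also below 0 and not called with that covariate. Of the antioxidants, Sod2 alone was called (0.21, adjusted P 0.0294), and Cat (0.07, adjusted P 0.378), Sod1 (0.16, adjusted P 0.1) and Trxr-1 (0.02, adjusted P 0.825) were not. ILP-2 was higher with Vg in that fit (0.20, adjusted P 0.0185). With the summed neuron markers as a covariate, 5001 genes were called, and among them Jhe (0.47), Hex70a (0.63), Hex110 (1.17), HEX70b (0.52) and Tsf1 (0.94) were higher with Vg and Br-c (-0.31, adjusted P 2.13e-04) was lower. In that fit Ecr (0.01, adjusted P 0.862), E75 (0.01, adjusted P 0.85) and InR-2 (-0.12, adjusted P 0.0896) were not called, while Usp (0.09, adjusted P 0.0355) and E74 (0.07, adjusted P 0.00327) were higher with Vg. Of the antioxidants Cat (0.10) was higher and Gtpx1 (-0.09) and MsrA (-0.11) were lower. This covariate did not take up the neuron markers themselves, of which 5 of 7 were still lower with Vg and 2 higher. NLG-3 (-0.33), NLG-4 (-0.33) and Nrx-1 (-0.30) had slopes near that of Br-c.

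In the brain, Vg varied with a storage protein of the fat body. Brain Hex70a ran from 0.133 to 68.2 CPM in antag-305 bees with a median of 1.36 CPM, and from 0 to 5.96 CPM in antag-missense bees with a median of 1.52 CPM. Its rho with brain Vg was 0.774 over 67 libraries after removal of group means, the second highest of 9117 genes, with 0.857 in R2, 0.727 in R3 and 0.696 in R42. Before that removal it was 0.878 in antag-305 and 0.567 in antag-missense bees, a difference that was not tested. Only LOC725305 was higher (rho 0.799). LOC113219195 (0.764), LOC725387 (0.698) and LOC411609 (0.662), which the study's gene table describes as a pancreatic triacylglycerol lipase, followed. The 3 lowest were LOC413005 (-0.590), the long noncoding RNA LOC107965678 (-0.565) and LOC412777 (-0.556). Hex110 had a rho of 0.481, Tsf1 0.429 and InR-2 0.434, and Jhe, first in the fat body, had 0.248. The oenocyte enzyme Cyp4g11 had 0.174 and the hemocyte enzyme PPO 0.389. Before removal of group means, the sum of the troponin genes had a rho of 0.0609 with brain Vg.

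**Figure D5:**
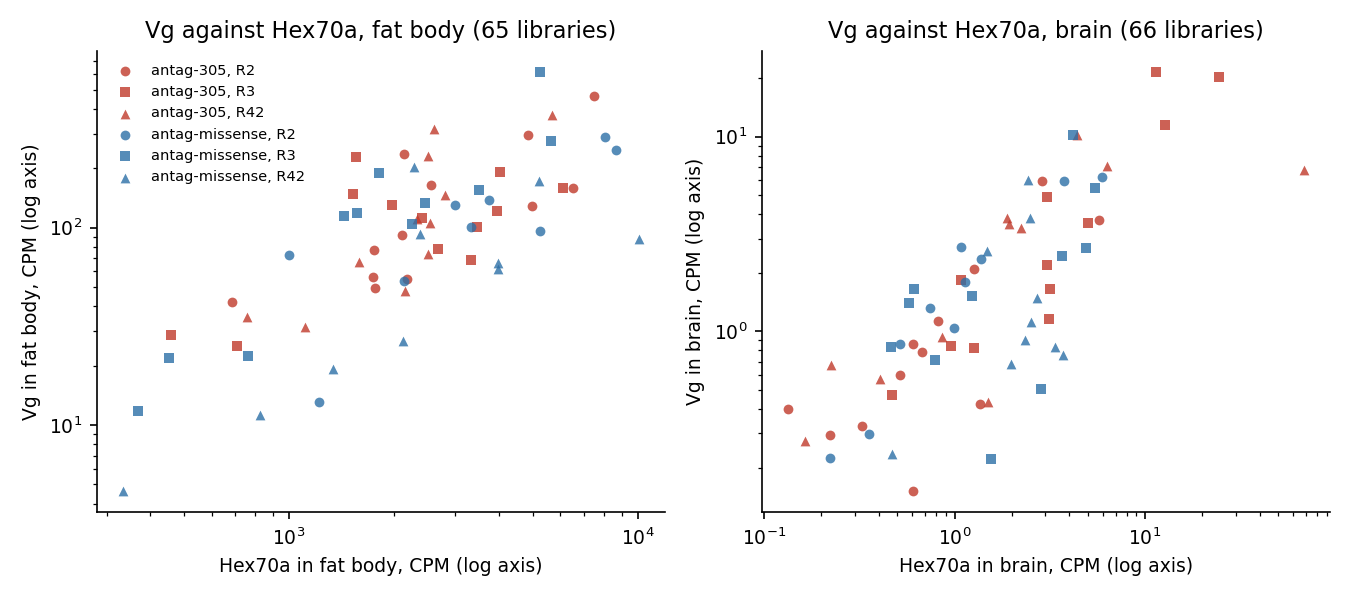
Vg level against Hex70a level of the same library, in CPM on log axes, for 65 fat body libraries (left) and the 66 brain libraries with a Hex70a read (right). Color gives the treatment and shape the colony. Both clouds rise, and antag-305 bee 14 of R42 stands apart in the brain at 68.2 CPM of Hex70a and 6.78 CPM of Vg.

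The proportion of Hex70a to Vg was not the same in the tissues. In the fat body there were between 6.87 and 114 Hex70a reads per Vg read (median 24.1), and in the brain between 0 and 10.1 (median 0.920). The proportion was higher in the fat body than in the brain of the same bee in 65 of 65 bees. Hex70a was a median of 1507-fold higher in fat body than in brain, with a log2 fold change of 10.4 (SE 0.31) against 5.77 for Vg.

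One brain library stood apart in fat body, oenocyte and muscle genes. Antag-305 bee 14 of R42 had 1412 CPM of Cyp4g11, against at most 53.1 CPM in the other brains, and 68.2 CPM of Hex70a, against at most 24.4 CPM. It had 37.3 CPM of the troponin gene TpnI, against at most 16.4 CPM. Its Syt1 level of 802 CPM was within the range of the brains. Without it, the rho of brain Vg with brain Hex70a, before removal of group means, was 0.758, against 0.767 with it.

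Brain Hex70a was compared between the same colonies and treatments. Brain Hex70a differed between colonies (edgeR adjusted P 0.0179), with medians of 3.04 CPM in R3, 2.23 CPM in R42 and 0.743 CPM in R2, in the order of the Vg medians. Hex110 also differed between colonies (adjusted P 1.23e-04) but in another order, with medians of 3.32 CPM in R42, 2.60 CPM in R3 and 1.87 CPM in R2. Between treatments Hex70a had a log2 fold change of 0.96 (SE 0.41, adjusted P 0.101), and 0.31 (adjusted P 0.527) without antag-305 bee 14 of R42. The median of Hex70a was 1.36 CPM in antag-305 and 1.52 CPM in antag-missense brains. Cyp4g11 was higher in antag-305 brains (1.82, SE 0.59, adjusted P 0.0348), and without antag-305 bee 14 of R42 its log2 fold change was 0.79 (adjusted P 0.0927). In a fit added after the data were seen, with the Hex70a level of the library as a covariate, brain Vg rose by 0.85 on the log2 scale per doubling of Hex70a (SE 0.08, edgeR adjusted P 3.94e-13). In it the treatment difference of Vg was 0.07 (SE 0.24), against 0.51 without the covariate, and R3 over R2 was -0.13 (SE 0.30), against 1.14. Without antag-305 bee 14 of R42 the slope on Hex70a was 0.93 (SE 0.08), the treatment difference 0.09 (SE 0.23) and R3 over R2 -0.22 (SE 0.29). Hex70a was among the genes closest to brain Vg in these same libraries. Such a covariate can shrink any difference that both genes share, whatever its source. The part of fat body RNA in these differences was not tested.

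In the fat body the same covariate moved the treatment difference the other way. Vg rose by 1.02 per doubling of Hex70a (SE 0.12, edgeR adjusted P 6.69e-09), and the log2 fold change of antag-305 over antag-missense was 0.43 (SE 0.22, P = 0.0568, adjusted P 0.439), against 0.20 without it. Without antag-missense bee 13 of R42 these were a slope of 0.98 (SE 0.12) and a log2 fold change of 0.38 (SE 0.22, P = 0.0874). Hex70a itself had a fat body treatment difference of -0.17 (SE 0.25, adjusted P 0.833). Of the 4 tested genes of the storage protein list and the 8 JH and ecdysone genes, none was called for treatment in the fat body. There 0.0678% of all genes were called, and the smallest P among these 12 genes was 0.0335 for Kr-h1 (log2 fold change 0.26, SE 0.12, adjusted P 0.541). Of the 7 neuron markers none was called there either. Syt1 had 0.49 (SE 0.11, adjusted P 0.0767), and the median of that list was -0.36. In the brain 1 of the 12 storage, JH and ecdysone genes was called, beside 11.3% of all genes. It was Usp, which was higher in antag-305 bees by 0.18 (SE 0.05, adjusted P 0.00926).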

How the data were processed

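The authors sequenced mRNA of single tissues of single bees. Reads were trimmed of adapters and aligned by the authors to HAv3.1 with STAR 2.7.6a under default settings, and the deposited counts were made with featureCounts of Subread 2.0.0. Each gene is counted over 1 span with introns, and the strand setting and the treatment of multiply aligned reads are not given in the sources used here. Gene symbols were taken from RefSeq (Amel_HAv3.1), which matched 12331 of 12332 spans by chromosome, start and end. Libraries above a viral share of 0.5% were left out, 4 from fat body and 2 from brain, all of antag-missense bees. One kept brain, antag-missense bee 23 of R2, had a viral share of 0.373%, above the study's threshold of 0.05%. Among 665 pairs of libraries of one group, the lowest chi-square per degree of freedom was 5.7, so no pair was merged.

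Counts were tested in R 4.3.3 with edgeR 4.0.16, with TMM factors, a filter that kept genes above 1 CPM in 30 or more libraries of the fat body and 32 or more of the brain, colony and treatment in the model, and the legacy quasi-likelihood form. Log2 CPM used a prior count of 2. Tissues were compared with the bee as a block, since both libraries come from 1 animal. After group means were removed, the libraries of one bee had a median correlation over genes of 0.0355, with 21 of 65 above 0.1. Correlations and spreads were tested by two-sided permutation with 100000 resamples. Fits and permutation tests were tested on simulated data. Alternatives were DESeq2 1.42.0 and its size factors, library totals without Vg, no filter, all libraries, the viral limit of 0.05%, no colony block, a block on bee number, edgeR's newer form, each colony or library left out, and ranks. Added after the data were seen were covariates for Hex70a, neuron and muscle markers and the omission of 2 libraries that stood apart, alone and with the Hex70a covariate.

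Vg and the gene lists were chosen with earlier results of these data known. The text names Vg, list genes that passed the test described or had the smallest P, the 5 genes with the highest and the 3 with the lowest rho with Vg in each tissue, and the neighbors of Vg. Of the cell type marker lists it gives counts and a few members. JHBP-1, Akhr and ILP-2 were named after their values were seen. The 12 lists hold 50 genes that the reference gives a symbol. Planned members without a symbol were not used, and 1 list gene is not reported here. Fat body, neuron, muscle, glia, hemocyte and oenocyte markers are reported above. The hypopharyngeal gland list summed to between 11.4 and 44.9 CPM in the fat body and between 83.4 and 2214 CPM in the brain, and the ovary list to between 17.5 and 66.3 CPM in the fat body and between 66.8 and 122 CPM in the brain. No sequence of Vg was used here.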

Additional observations from a re-analysis of the deposited data

Results flagged for a closer look

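One value stood apart from its group by Dixon's criterion at the 95% level. The fat body over brain ratio of Vg in antag-missense bee 18 of R2 was 456, with 136 CPM in the fat body and 0.299 CPM in the brain, and the next highest of the 9 bees of its group, bee 24, had 245. These ratios rest on 5 and 2 brain Vg reads (95% Wilson intervals 0.127 to 0.696 and 0.0942 to 1.25 CPM without TMM scaling), and these intervals overlap. The criterion was applied to groups of 4 to 10 bees, 5 in all over levels and ratios, without a log scale. All 5 were of antag-missense bees. The antag-305 groups, with 11 or 12 bees, were not examined, and the highest ratio, 930, lies in one of them. Chance flags about 1 in 20 groups where values are normally distributed, and that rate need not hold for skewed values such as these ratios. The 6 libraries left out for viral share had between 29.6 and 131 CPM of Vg in the fat body and 1.37 and 2.43 CPM in the brain, within the range of the antag-missense libraries used.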

How the results depend on the processing

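The tissue difference passed the threshold under all 7 alternatives, with log2 fold changes from 5.37 without colony R2 to 5.92 without R42, and 5.49 without the replicate block of bees. The treatment difference of Vg was not called in either tissue under any alternative run. In the fat body the log2 fold change was -0.11 without colony R42, the only one below 0, and otherwise at most 0.57, under a replicate block of bee number within colony (adjusted P 0.999). In the brain it ran from 0.07 with Hex70a as covariate to 1.04 without colony R2 (adjusted P 0.111), and was 0.42 under the replicate block. Same-numbered bees of the treatments had a median correlation of -0.111 between fat bodies and 0.0383 between brains, so the number was not taken to pair them. With each library left out in turn, the log2 fold change ran from 0.11 to 0.38 in the fat body and from 0.36 to 0.66 in the brain. No colony contrast of Vg was called under any alternative. R3 over R2 in the fat body, -0.0021 in the reported fit, was 0.0076 with library totals without Vg, 0.091 with all libraries, 0.29 in antag-missense bees and 0.52 with Hex70a as covariate (0.49 also without antag-missense bee 13 of R42, where R42 over R2 was 0.019). R42 over R3 there, -0.38 in the reported fit, was 0.27 in antag-305 bees, -1.09 in antag-missense bees (P = 0.0809 in edgeR) and -0.54 with Hex70a as covariate (P = 0.0481, adjusted P 0.0884). In the brain R3 over R2 was -0.13 with Hex70a as covariate, and R42 over R2 was -0.21 in antag-missense bees and -0.18 with that covariate. With that covariate and without antag-305 bee 14 of R42, R3 over R2 was -0.22, R42 over R2 -0.15 and R42 over R3 0.068. The number of fat body genes called on Vg was 314 with muscle markers as covariate, and between 3868 and 5039 under the other 7 alternatives. The same-bee correlation r ran from 0.178 to 0.265 with each bee left out, and reached P = 0.0328 by permutation, unadjusted, only without antag-missense bee 20 of R3. It was 0.141 without colony R3, 0.249 without R2 and 0.273 without R42. The slope of brain Vg on fat body Vg was 0.075 without R2, 0.25 without R3 and 0.35 without R42, and was not called in any of these fits. The causes of these changes were not tested. Vg depth limits the brain results, with 19 of 67 libraries under 10 reads.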

Other observations

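Kr-h1, the juvenile hormone response factor, varied together in the tissues of one bee. Its rho between fat body and brain was 0.752 over the 65 bees, and 8 of 8282 genes had a higher value, and Vg had 0.247. Kr-h1 also differed between colonies in both tissues (edgeR adjusted P 2.39e-05 in the fat body and 6.98e-09 in the brain). That comparison called 45.4% of fat body and 33.6% of brain genes. The rho over all bees includes those differences, and none was computed within colonies. In the same bees Jhe, among the genes closest to Vg in the fat body, had a rho of -0.00625 between the tissues.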
